A study of Mus musculus with 7 samples.

Results

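The choroid plexus is the secretory tissue of the brain ventricles, and 7 genes that mark its epithelium were followed in mouse cerebral cortex: Ttr, Kl, Folr1, Kcnj13, Clic6, Aqp1 and Enpp2. They were taken by symbol, and each matched 1 of the 36666 genes in the deposited gene table. The samples were C57BL/6 cerebral cortex, 4 from embryonic day 17 and 3 from animals that the series calls young adults, with no treatment or engineered allele named for either group. The sources used here give neither the exact adult age nor the sex nor the number of animals behind a sample, and p-values measure only the spread between these samples. The comparison asked how the level of each gene differed between embryonic and adult cortex. The tissue is labelled as cortex, so each adult value is shown separately: plexus carried along in the adult dissections and expression within the cortex cannot be told apart in bulk RNA, nor can more cells of a type and more RNA per cell.

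The choroid plexus is a sheet of cuboidal epithelium over a leaky capillary bed, and it makes most of the cerebrospinal fluid. Its epithelium arises from the dorsal midline of the neural tube, next to the cortical hem. It secretes carrier proteins and enzymes into the fluid, takes up vitamins from the blood, and moves ions and water through channels and transporters in its apical membrane. Of the 7 genes, Ttr encodes a secreted carrier, Kl and Folr1 encode a coreceptor and a receptor, Kcnj13, Clic6 and Aqp1 encode channel proteins, and Enpp2 encodes a secreted enzyme. Several of them are also used outside the plexus: Enpp2 is abundant in myelinating oligodendrocytes, and Kl and Aqp1 are prominent in the kidney.

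Levels are given as recovered reads per 1000000 reads in genes (CPM), and differences as adult minus embryonic mean on the deposited log2-like scale, where a step of 1 is near 2-fold at high levels and more than 2-fold at low ones. The 7 libraries held 18444272 to 23606525 reads in genes, so 1 read was worth 0.0424 to 0.0542 CPM. Intervals on ratios cover counting error only. Of 22828 genes tested with limma, 8180 (35.8%) were higher in adult cortex and 7736 (33.9%) were lower at an adjusted p under 0.05, and the median difference was 0.03. Of 8 markers of cortical excitatory neurons, 7 were lower in the adult and 1 was higher, and all 8 had at least 343 reads in every sample. Their summed level was 2244 to 2408 CPM in embryonic and 1783 to 1925 CPM in adult samples. The presence of these markers cannot show whether other tissue was carried along. Neurod6, a transcription factor of cortical excitatory neurons, went from 487 ± 17.9 CPM (SD, n = 4) to 54.3 ± 5.52 CPM (SD, n = 3), and Slc17a7, their vesicular glutamate transporter, from 52.2 ± 7.70 to 1312 ± 61.1 CPM.

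All 7 choroid plexus genes were higher in adult cortex, and for each of them every adult sample was above every embryonic sample. Across all tested genes, 35.8% were called higher and 35.7% had groups that did not overlap in that direction. The sizes of the differences set the 7 genes further out: the smallest, that of Aqp1, ranked 1454 among the 22828 genes, so 6.37% of all tested genes had a difference at least as large. Ttr ranked 2, Enpp2 59, Kl 69, Clic6 126, Folr1 197 and Kcnj13 853. Summed over the 7 genes, the embryonic samples held 7.37, 10.2, 10.4 and 10.3 CPM and the adult samples 1275, 1229 and 1057 CPM.

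**Figure D1:**
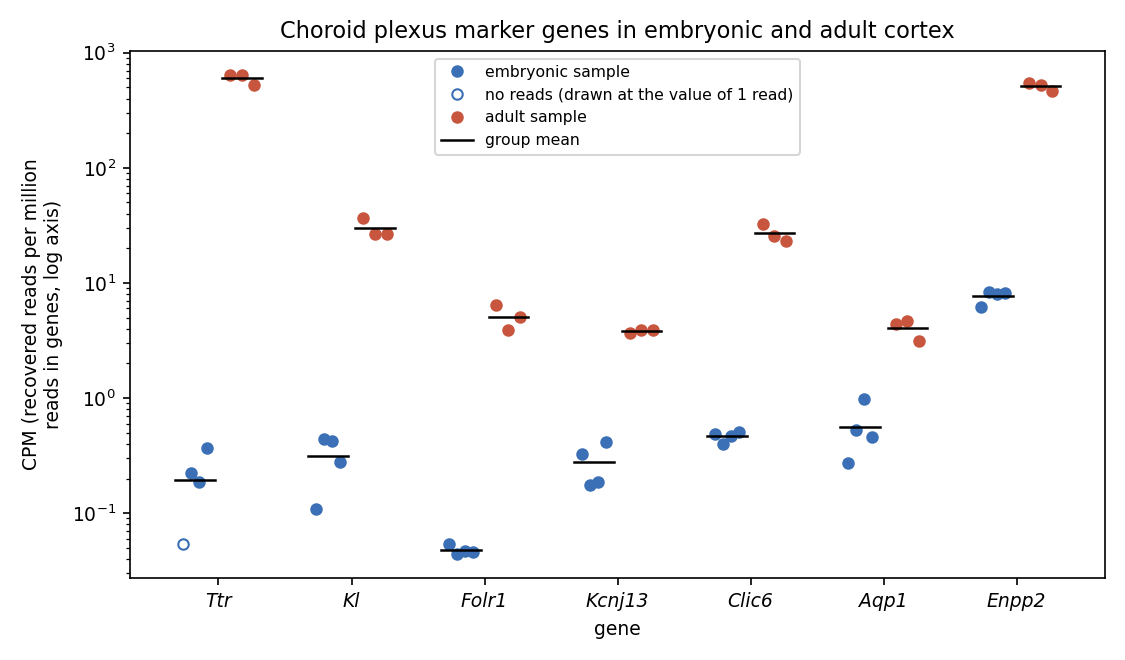
CPM of the 7 genes in each sample, on a log axis, with 4 embryonic (blue) and 3 adult (red) points per gene and the group mean as a black bar; the open point is the embryonic sample without Ttr reads, drawn at the value of 1 read. All adult points lie above all embryonic points for each gene, and the gap is widest for Ttr, from 0.195 to 604 CPM.

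**Figure D2:**
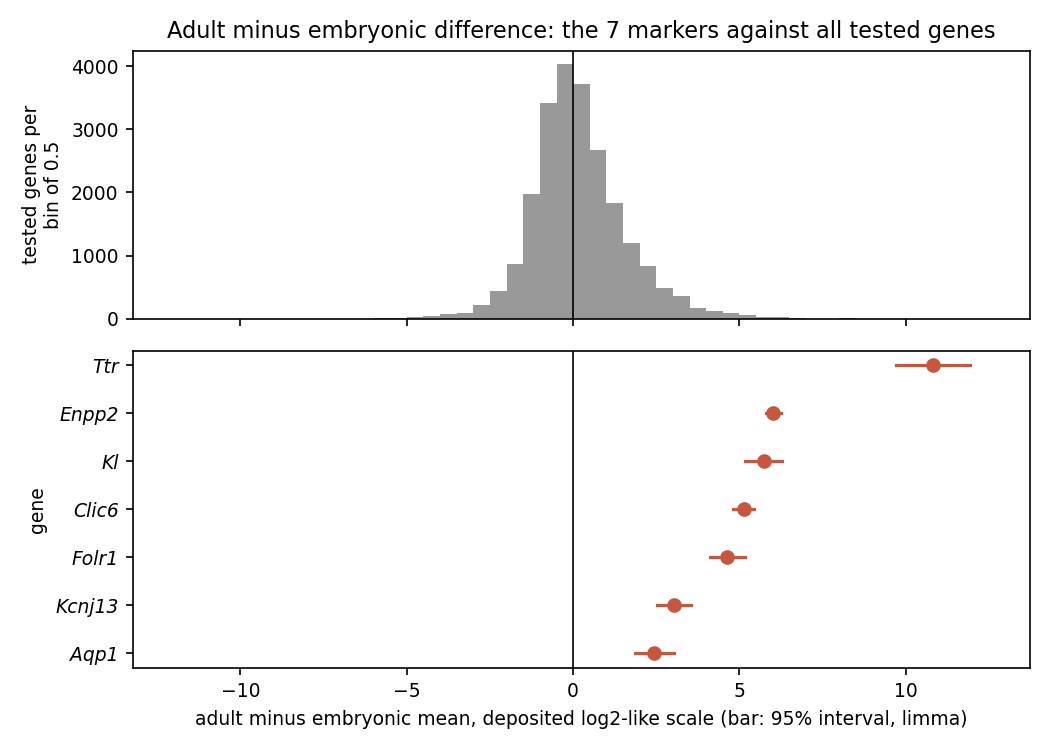
Upper panel: number of tested genes in each bin of the adult minus embryonic difference, for all 22828 genes. Lower panel: the difference of each of the 7 genes with its 95% interval from limma, on the same axis, from 2.44 for Aqp1 to 10.82 for Ttr, all intervals above 0.

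Ttr encodes transthyretin, the carrier of thyroxine and, with retinol-binding protein, of retinol, and it is the most abundant secreted product of the plexus epithelium. It had 0, 5, 4 and 8 reads in embryonic replicates 1 to 4 and 14707, 15200 and 12000 reads in adult replicates 1 to 3, or 642, 644 and 528 CPM in the adult. The embryonic samples were thus at or near 0, and the absence of reads in embryonic replicate 1 allows up to 0.163 CPM (3 reads). The mean went from 0.195 ± 0.152 CPM (SD, n = 4) to 604 ± 66.4 CPM (SD, n = 3). The difference was 10.82 (SE 0.52, 95% interval 9.71 to 11.93, adjusted p = 2.78e-10, limma), and the pooled CPM ratio was 2987 (exact 95% interval 1865 to 5128).

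Other genes of thyroid hormone and retinol handling did not share one direction: of 13 tested from a list of 15, 7 were higher, 4 lower and 2 not called. All tested genes were also split, with 35.8% higher and 33.9% lower. The median difference of the list was 0.53. Rbp4, the retinol-binding protein that travels in plasma bound to transthyretin, rose from 0.223 ± 0.165 to 9.75 ± 0.791 CPM, a difference of 4.55 (adjusted p = 6.91e-09). Thrb, a thyroid hormone receptor, rose by 3.98. No gene of the list changed by more than Rbp4.

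Kl encodes klotho, a single-pass membrane protein that serves as coreceptor for FGF23 and whose ectodomain is shed into the fluid. It had 2, 10, 9 and 6 reads in the embryonic samples and 842, 629 and 609 reads in the adult ones, which are 36.7, 26.6 and 26.8 CPM. Adult replicate 1 was the highest, and the other adult samples were almost level. The mean went from 0.313 ± 0.155 CPM (SD, n = 4) to 30.1 ± 5.79 CPM (SD, n = 3), with a difference of 5.73 (SE 0.26, 95% interval 5.18 to 6.28, adjusted p = 1.47e-10) and a pooled ratio of 93.3 (63.97 to 142).

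Of 13 tested genes from a list of 15 on klotho, FGF signalling and vitamin D, 3 were higher, 6 lower and 4 not called. Across all tested genes, 35.8% were higher and 33.9% lower. The median difference of the list was -0.28, or -0.36 with Fgf15 and Fgf21, which had no adult reads, at their bound. Klb, the closest relative of Kl and coreceptor for other endocrine FGFs, was not called and stood at 0.509 ± 0.219 CPM in the embryo and 0.391 ± 0.0818 CPM in the adult. Fgfr4, a receptor that pairs with Klb, fell by 3.17, and Fgf15, an endocrine FGF, had 29, 102, 27 and 41 embryonic reads and none in any adult sample. Vdr, the vitamin D receptor, was the largest riser of the list, with 0, 2, 0 and 0 embryonic reads against 9, 10 and 10 adult reads.

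Folr1 encodes folate receptor alpha, the anchored receptor that carries folate across the plexus epithelium into the fluid. It had exactly 1 read in each of the 4 embryonic samples and 146, 92 and 115 reads in the adult samples, or 6.37, 3.897 and 5.06 CPM. The embryonic level is therefore set by single reads, while the adult samples all stood well above it and spread 1.63-fold, the widest of the 7 genes. The difference was 4.63 (SE 0.24, 95% interval 4.11 to 5.16, adjusted p = 7.44e-10), and the pooled ratio was 107 with a wide counting interval of 41.4 to 395. Folr1 overlaps Anapc15 on the opposite strand in the annotation, but their exons do not overlap.

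Most other folate genes were lower in the adult: of 13 on the list, all tested, 2 were higher, 8 lower and 3 not called, with a median difference of -0.49. Folr2, the second folate receptor gene, rose by 1.03 from 0.273 ± 0.0695 to 0.736 ± 0.222 CPM (adjusted p = 0.005). Slc46a1, the proton-coupled folate transporter that works with Folr1 in the plexus, fell by 0.49, from 19.3 ± 2.04 to 12.7 ± 2.03 CPM. Tyms, which uses folate to make thymidylate for DNA synthesis, fell by 2.85, and Shmt1, a serine hydroxymethyltransferase, fell by 1.31.

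Promoter sequences of 3 of the 7 genes, Kcnj13, Kl and Aqp1, were at hand from RefSeq (GRCm38.p6) and are shown as examples of genes that were higher in the adult, for their base composition and motifs. Each run is the 250 bases before the transcription start, 5′ to 3′ on the gene's strand, with matches to the TATA box TATAAA, the GC box GGGCGG and the CCAAT box CCAAT on either strand in capitals. The windows are chr1:87394730-87394979 on the minus strand for Kcnj13, chr5:150952357-150952606 on the plus strand for Kl and chr6:55336049-55336298 on the plus strand for Aqp1.
Kcnj13: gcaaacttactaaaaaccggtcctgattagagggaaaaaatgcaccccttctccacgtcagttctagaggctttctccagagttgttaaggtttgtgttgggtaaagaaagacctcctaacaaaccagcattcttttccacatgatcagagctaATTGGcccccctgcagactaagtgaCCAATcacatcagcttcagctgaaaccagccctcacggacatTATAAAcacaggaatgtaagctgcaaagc
Kl: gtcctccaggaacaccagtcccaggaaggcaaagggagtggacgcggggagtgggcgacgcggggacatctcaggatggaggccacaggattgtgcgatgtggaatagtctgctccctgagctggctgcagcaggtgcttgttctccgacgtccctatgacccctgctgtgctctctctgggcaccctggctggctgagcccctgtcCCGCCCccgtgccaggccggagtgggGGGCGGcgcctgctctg
Aqp1: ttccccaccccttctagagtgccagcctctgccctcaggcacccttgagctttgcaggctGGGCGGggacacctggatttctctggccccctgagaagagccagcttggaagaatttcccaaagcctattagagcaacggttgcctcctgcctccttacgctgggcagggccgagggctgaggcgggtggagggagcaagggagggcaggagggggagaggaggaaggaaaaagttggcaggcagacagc

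Kcnj13 had a promoter of 45.2% GC with a TATAAA match 29 to 24 bases before the start and CCAAT matches at 71 to 67 and, on the other strand, 96 to 92 bases. Kl had 66.8% GC and GGGCGG matches at 17 to 12 and, on the other strand, 43 to 38 bases. Aqp1 had 62.0% GC and 1 GGGCGG match, at 190 to 185 bases. Of 32851 windows of the same length, 12.4% held TATAAA, 32.7% GGGCGG and 33.8% CCAAT on either strand. The core TAATCC bound by Otx2, a transcription factor required for the plexus, was in none of the 3 windows and in 6.25% of all. No motif searched was found in all 3 windows, and a match is a description of letters only.

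Kcnj13 encodes Kir7.1, an inwardly rectifying potassium channel of the apical membrane of transporting epithelia. It had 6, 4, 4 and 9 embryonic reads and 85, 93 and 88 adult reads, or 3.71, 3.94 and 3.87 CPM in the adult. The adult samples were nearly level, 1.06-fold apart, and all lay above the embryonic mean of 0.277 ± 0.115 CPM (SD, n = 4). The difference was 3.03 (SE 0.23, 95% interval 2.53 to 3.53, adjusted p = 3.87e-08), with a pooled ratio of 14.01 (9.14 to 22.5). Exons of Kcnj13 overlap those of Gigyf2 on the opposite strand, which had 2045 to 2408 embryonic and 2095 to 2158 adult reads, so without strand in the counting the Kcnj13 reads are uncertain.

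Kcnj13 rose together with most of its family: of 12 other inward rectifiers, all tested, 10 were higher and 2 lower, with a median difference of 2.38. Kcnj4, a neuronal strong rectifier, rose by 5.18 from 2.97 ± 0.870 to 119 ± 3.91 CPM. Kcnj16, a subunit that pairs with the glial channel Kcnj10, rose by 4.73 from 0.634 ± 0.123 to 25.5 ± 2.85 CPM. Kcnj15 fell by 1.67 and had 0, 2 and 1 adult reads.

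Clic6 encodes a member of the chloride intracellular channel family. It had 9, 9, 10 and 11 embryonic reads and 748, 608 and 531 adult reads, or 32.6, 25.8 and 23.4 CPM in the adult. The embryonic samples were level at 0.466 ± 0.0477 CPM (SD, n = 4), and among adult samples replicate 1 was highest and replicate 3 lowest. The counting intervals of adult replicates 2 and 3 overlapped, so which of them was lowest is not resolved. The difference was 5.12 (SE 0.15, 95% interval 4.80 to 5.45, adjusted p = 2.61e-12), with a pooled ratio of 58.6 (42.7 to 82.7). Of its 4 relatives on the list 1 was higher, 2 were lower and 1 was not called, with a median difference of -0.49. Without adult replicate 3, or with the replicate number as a block, 2 were higher. Clic5, which is linked to the actin cytoskeleton, rose by 2.86 and Clic3 fell by 1.34.

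Aqp1 encodes the water channel of the apical plexus membrane. It had 5, 12, 21 and 10 embryonic reads and 100, 111 and 71 adult reads, or 0.271, 0.532, 0.988 and 0.462 CPM against 4.36, 4.702 and 3.12 CPM. Embryonic replicate 3 was the highest of its group and still lay below the lowest adult sample. The difference, 2.44 (SE 0.27, 95% interval 1.86 to 3.03, adjusted p = 1.99e-06), was the smallest of the 7, with a pooled ratio of 7.12 (5.23 to 9.88). Among 10 other aquaporins only 5 were tested, of which 3 were higher and 2 not called, with a median difference of 1.10, or 1.38 with Aqp6, which had no embryonic reads, at its bound. Aqp4, the water channel of astrocyte endfeet, rose by 4.80 from 4.01 ± 0.684 to 122 ± 15.2 CPM, and Aqp11 rose by 1.67.

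Enpp2 encodes autotaxin, the secreted phosphodiesterase that makes lysophosphatidic acid from lysophosphatidylcholine. It had 113, 189, 171 and 178 embryonic reads and 12592, 12279 and 10611 adult reads, or 6.13, 8.37, 8.05 and 8.23 CPM against 549, 520.2 and 467 CPM. It was the only one of the 7 genes with over 21 reads in every embryonic sample, and embryonic replicate 1 was below the other embryonic samples. The difference was 6.01 (SE 0.11, 95% interval 5.78 to 6.24, adjusted p = 5.88e-14), with a pooled ratio of 66.04 (61.1 to 71.5). Exons of Enpp2 overlap the antisense gene Gm26684 in the annotation, whose reads cannot be told apart without strand.

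Of 14 other genes for ENPP enzymes, lysophosphatidic acid receptors and the phosphatases that remove this lipid, all tested, 8 were higher, 3 lower and 3 not called, with a median difference of 0.60. Enpp6, a choline phosphodiesterase of oligodendrocytes that are beginning to myelinate, rose by 5.52, with 0, 0, 1 and 1 embryonic reads and 105, 227 and 86 adult reads. Lpar2, a lysophosphatidic acid receptor, fell by 3.59 from 18.9 ± 0.235 to 1.08 ± 0.0912 CPM.

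**Figure D3:**
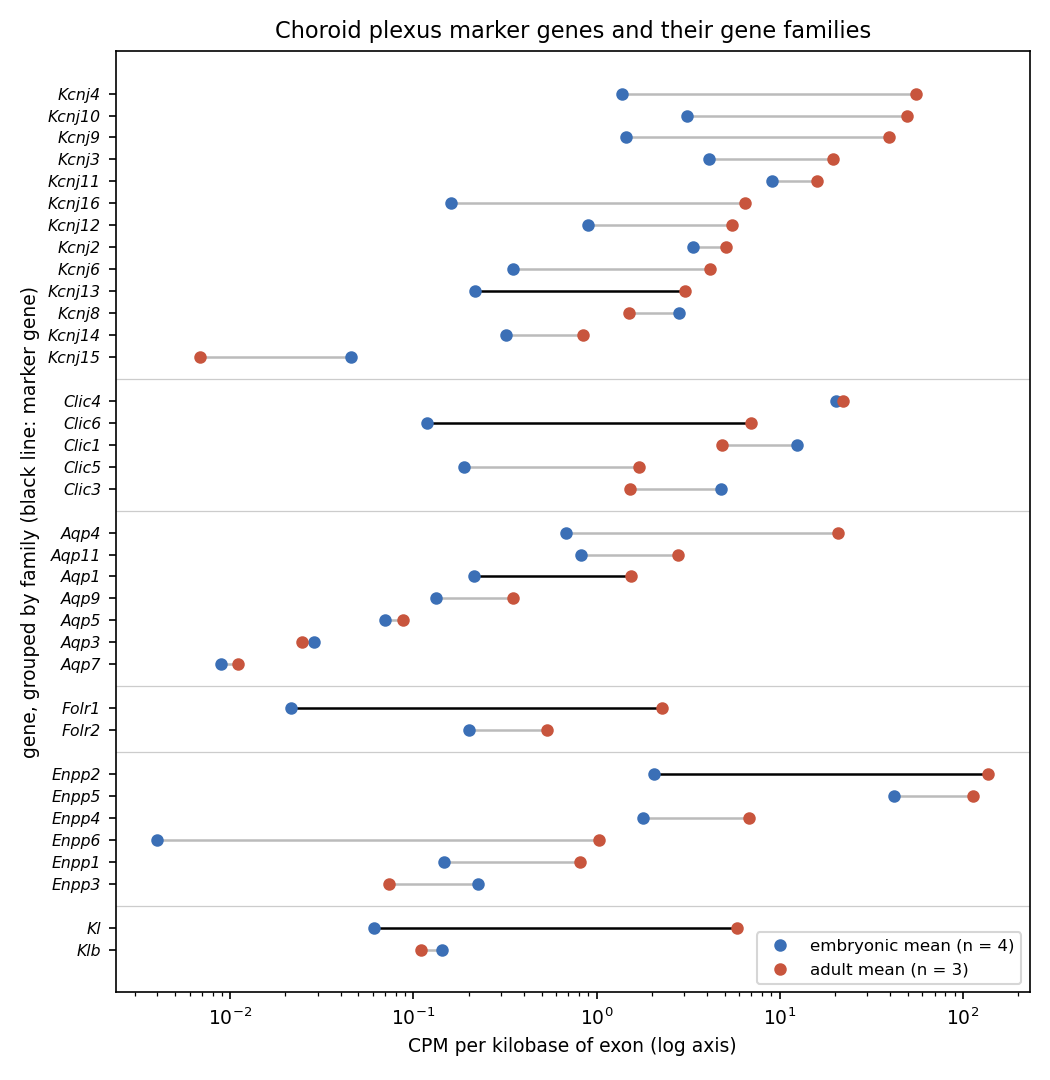
Embryonic (blue, mean of 4) and adult (red, mean of 3) levels of 6 of the marker genes (black lines) and of list genes whose symbols share their family stem (grey lines), as CPM per kilobase of exon on a log axis, for genes with reads in both groups. Kcnj13 rose with 10 of 12 relatives, while Kl rose from 0.0612 to 5.87 CPM per kb and Klb was not called.

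To rank the genes by level, CPM were divided by the kilobases of exon. In the adult the order was Ttr at 509.7, Enpp2 at 137, Clic6 at 6.96, Kl at 5.87, Kcnj13 at 3.02, Folr1 at 2.29 and Aqp1 at 1.55 CPM per kb. The sample ranges of Clic6 and Kl overlapped, as did those of Folr1 and Aqp1, so these neighbours were not separated by their spread, while the other neighbours were. The gap between Kcnj13 and Folr1 was narrow, with the lowest Kcnj13 sample at 2.92 and the highest Folr1 sample at 2.85 CPM per kb. Counting error was left out and the Kcnj13 reads are uncertain, so the order of Kcnj13 and Folr1 is not resolved. In the embryo Enpp2 led at 2.06 CPM per kb and its range lay above that of the next gene, Kcnj13, at 0.218. Aqp1 at 0.214, Ttr at 0.164 and Clic6 at 0.119 followed, each overlapping its neighbour in this run from Kcnj13 to Clic6. Kl at 0.0612 and Folr1 at 0.0215 came last, below Clic6 and overlapping each other. The embryonic range of Ttr, 0 to 0.312 CPM per kb, overlapped those of all genes but Enpp2, so its place in the embryo is not resolved.

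Other genes of the plexus moved in the same direction for the most part. Of 26 further genes taken here as markers of its epithelium, 25 were tested: 22 were higher, 2 lower and 1 not called. Across all tested genes, 35.8% were higher and 33.9% lower. The median difference of the list was 2.79, or 2.90 with Cox8b at its bound. These genes are not all particular to the plexus, and Msx1 and Lmx1a also stand on the dorsal midline list. The summed level of the 26 genes was 47.8 to 49.6 CPM in embryonic and 148 to 196 CPM in adult samples. F5, coagulation factor V, rose by 5.13 from 0.116 ± 0.0730 to 10.8 ± 1.91 CPM. Lbp, a lipopolysaccharide-binding protein, rose by 4.96, Prlr, the prolactin receptor, by 4.64, Msx1, a homeobox factor of the dorsal midline, by 4.59 and Tmem72, a membrane protein, by 4.56. Cox8b, a subunit of cytochrome c oxidase, had no embryonic reads and 27, 9 and 10 adult reads. Otx2 itself had 13, 39, 7 and 11 embryonic reads and 121, 117 and 78 adult reads, a difference of 2.29.

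The 3 tested genes that did not rise were Cldn3, Col9a3 and Cldn1. Cldn3, a tight junction claudin, fell by 2.64 from 4.62 ± 0.184 to 0.449 ± 0.117 CPM (adjusted p = 6.39e-09), and Col9a3, a collagen chain, fell by 0.49. Cldn1, another claudin, was not called, at 3.15 ± 0.904 CPM in the embryo and 3.12 ± 0.709 CPM in the adult. Of 14 genes that the plexus shares widely with other brain cells, 10 were higher and 4 lower, with a median difference of 1.30. Htr2c, the serotonin receptor 2C, rose by 3.68 and Car14, a membrane carbonic anhydrase, rose from 0.928 ± 0.3001 to 9.62 ± 1.702 CPM, while Slc29a4, a monoamine transporter, fell by 2.61 from 118 ± 5.98 to 17.7 ± 3.19 CPM.

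Genes of the dorsal midline and cortical hem, from which the plexus arises, were higher in 9 and lower in 1 of 12 tested, with a median difference of 1.22. Bmp4, a midline morphogen, rose by 3.44. Rspo3, a Wnt agonist, fell by 0.36 (adjusted p = 0.0145), and without adult replicate 2 it was not called (-0.29, adjusted p = 0.0629), which left 0 lower genes on the list, against 2 without embryonic replicate 3 or adult replicate 1.

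Markers of tissues next to the plexus or the cortex were also higher in the adult, and their part in the 7 differences was not tested. Of the meninges list, all 14 genes were higher, with a median of 3.90 and a summed level of 10.2 to 16.5 CPM in embryonic and 126 to 147 CPM in adult samples. Slc6a13, a GABA transporter of the leptomeninges, rose by 5.92 and Slc22a6, an organic anion transporter, by 5.33. Of ependyma and motile cilia genes, 13 of 14 tested were higher and 1 was not called, with a median of 1.90, or 2.07 with Tmem212 and Ccdc153 at their bounds, and the summed level went from 15.7 to 19.5 CPM to 49.97 to 59.7 CPM. Rsph1, a radial spoke protein of cilia, rose by 3.26 and Rarres2, which encodes chemerin, by 3.19, while Tmem212 and Ccdc153 had no embryonic reads.

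Myelin genes showed the largest shift of the lists, and oligodendrocytes express Enpp2 too. All 13 tested myelin genes were higher, with a median of 6.58, or 6.69 with Opalin at its bound, and their summed level went from 65.2 to 71.7 CPM to 4512 to 8078 CPM. Mobp, a structural protein of compact myelin, rose by 11.48 to 480.3 ± 84.7 CPM, and Cldn11, the claudin of myelin, by 8.31. All 14 myelin genes were highest in adult replicate 2. Enpp2 stood at 549, 520.2 and 467 CPM in adult replicates 1 to 3. How much of the Enpp2 signal comes from oligodendrocytes or from plexus epithelium was not tested.

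Of 10 endothelial genes, 7 were higher, 1 lower and 2 not called, with a median of 0.89. Slco1a4, an organic anion transporter of the blood-brain barrier, rose by 6.95 and Ly6c1 by 3.88, while Kdr, a VEGF receptor, fell by 0.73. All 9 striatal genes were higher, with a median of 2.22 and a summed level of 243 to 276 CPM against 1164 to 1370 CPM, led by Penk, which encodes proenkephalin, at 5.01. All 4 dentate gyrus genes were higher, with a median of 1.47, led by C1ql2 at 4.06 and Dsp, which encodes desmoplakin, at 1.81. Of 10 thalamic and hypothalamic genes, 8 were higher and 2 not called, with a median of 2.05 and a summed level of 42.6 to 49.2 CPM against 95.6 to 172 CPM. Without adult replicate 3, 8 were higher too, but 5 were higher with voom on recovered reads and 6 or 7 under the other alternatives.

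Some of the hypothalamic genes differed strongly among the adult samples. Avp, which encodes vasopressin, had 79, 362 and 31 adult reads, and Oxt, which encodes oxytocin, had 29, 285 and 44. Hcrt, which encodes orexin, had 75, 117 and 1 adult reads and Pmch, which encodes melanin-concentrating hormone, 99, 114 and 1. Adult replicate 3 was low in Hcrt and Pmch, which were chosen after their values were seen, but not in Oxt, where it stood above replicate 1. The part of these regions in the levels of the 7 genes was not tested.

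**Figure D4:**
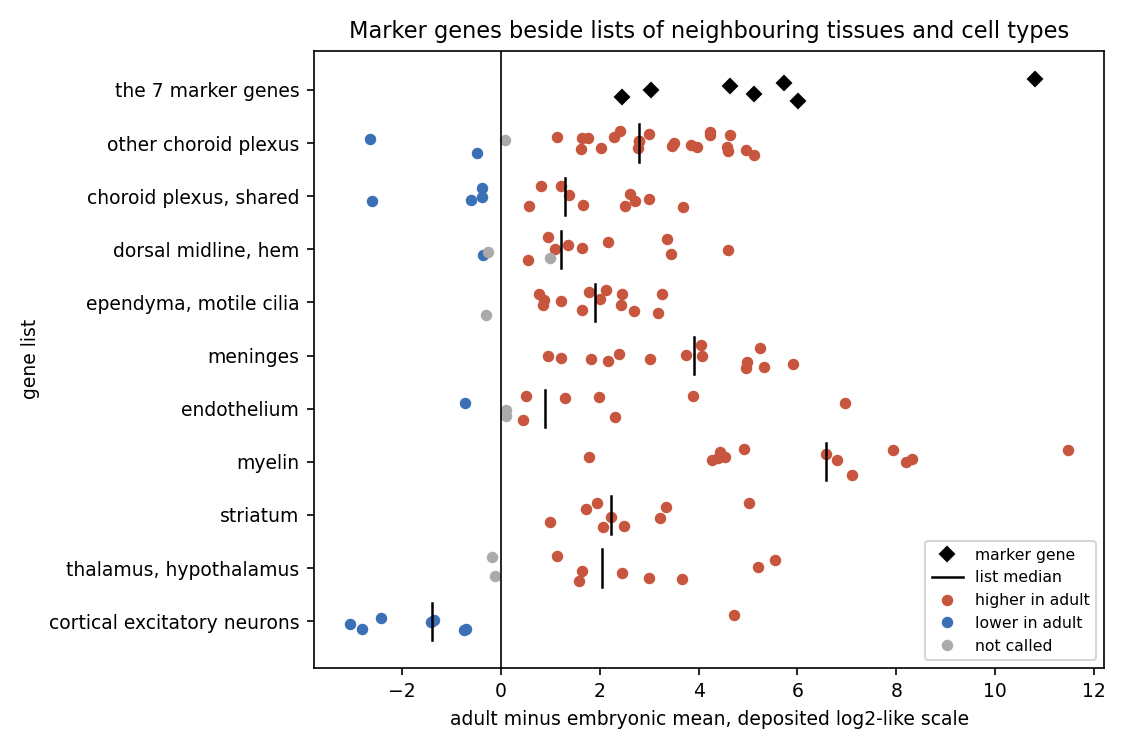
Adult minus embryonic difference on the deposited log2-like scale for the 7 marker genes (black diamonds) and for each tested gene of 10 lists (red, higher in adult; blue, lower; grey, not called), with the list median as a black line; vertical jitter is arbitrary. The other choroid plexus genes have a median of 2.79, the meninges genes 3.90 and the myelin genes 6.58.

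The 7 genes did not keep a fixed ratio among the adult samples. Adult replicate 1 was the highest for Kl, Folr1, Clic6 and Enpp2, and adult replicate 2 for Ttr, Kcnj13 and Aqp1. For Ttr, Kcnj13 and Aqp1 the counting intervals of replicates 1 and 2 overlapped, as did those of Folr1 in replicates 1 and 3, so which sample was highest is not resolved for these genes. Adult replicate 3 was the highest for none of them and the lowest for Ttr, Clic6, Aqp1 and Enpp2. Its counting interval overlapped that of replicate 2 for Clic6 and those of replicates 1 and 2 for Aqp1. The lowest sample is therefore not resolved for Clic6 and Aqp1. Among the 17980 genes with at least 30 adult reads, 34.4%, 33.7% and 31.9% were highest in replicates 1, 2 and 3.

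The spread was small beside the differences between groups. The highest adult sample exceeded the lowest by 1.06-fold for Kcnj13, 1.18 for Enpp2, 1.22 for Ttr, 1.38 for Kl, 1.397 for Clic6, 1.51 for Aqp1 and 1.63 for Folr1. The coefficient of variation over adult samples was 10.98% for Ttr, where counting alone gives 0.846%, and 19.3% for Kl, where counting gives 3.80%. Kcnj13 was the only one below its counting error, at 3.08% against 10.6%.

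Reads set against those of Ttr in the same sample, without correction for length, are compared here across samples only. Kl had 57.3, 41.4 and 50.8 reads per 1000 Ttr reads in adult replicates 1 to 3, and Clic6 had 50.9, 40.00 and 44.2. Folr1 had 9.93, 6.05 and 9.58, and these genes were lowest against Ttr in replicate 2. Kcnj13 had 5.78, 6.12 and 7.33 reads, highest in replicate 3, and Aqp1 6.799, 7.303 and 5.92, highest in replicate 2. Counting alone gives 10.6% for Kcnj13 and 10.3% for Aqp1 in the adult, so their highest replicates are not resolved. Enpp2, for which counting gives only 0.92%, was the steadiest, at 856, 808 and 884 reads per 1000 Ttr reads. The pooled embryonic samples, where Ttr was nearly absent, held 38294.

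The other plexus genes, summed, stood at 1.17, 0.881 and 0.948 of their adult mean in replicates 1 to 3, and Prlr, one of the genes in that sum, had 1050, 358 and 689 reads. The meninges sum stood at 1.098, 0.964 and 0.939 and the ependyma sum at 0.979, 1.1004 and 0.921. The myelin sum stood at 0.929, 1.33 and 0.742 and the thalamic and hypothalamic sum at 1.204, 1.13 and 0.668. The striatal sum stood at 0.921, 0.996 and 1.08. The part of any of these tissues in the adult spread was not tested.

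**Figure D5:**
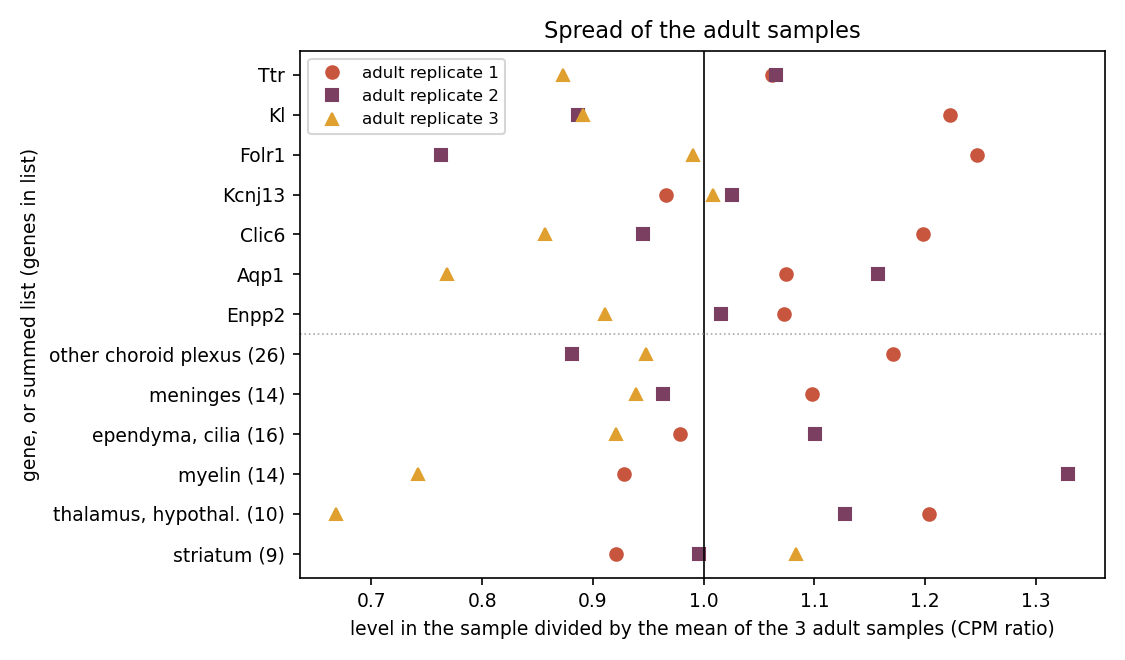
Level of each gene, and the summed level of 6 lists, in adult replicates 1 (circles), 2 (squares) and 3 (triangles), divided by the mean of the 3 adult samples; the vertical line marks the mean and the dotted line separates genes from lists. Kcnj13 lies within 1.06-fold, Folr1 spreads 1.63-fold and the myelin sum runs from 0.742 to 1.33.

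The nearest profiles to each gene over the 7 samples were found by root mean square distance after centring each gene on its mean. The difference between groups dominates this distance, so it mostly returns genes with a difference of similar size. Apod, for example, had a difference of 4.66 beside 4.63 for Folr1. Whether any of these genes vary together within a group was not tested. For Ttr they were the myelin gene Mobp (0.98), the sodium channel subunit Scn4b (1.04) and parvalbumin, Pvalb (1.46), farther off than the nearest profiles of the other 6 genes. Kl was nearest to Fxyd1 (0.28), AC124169.1 (0.30) and Enpp2 (0.31), which made Enpp2 the only gene of the 7 among these nearest profiles. Folr1 was nearest to Apod (0.09), Hlf (0.11) and Dgkb (0.13), and Kcnj13 to S100a6 (0.11), Gm15631 (0.11) and Ism1 (0.12). Clic6 was nearest to the glutamate transporter Slc1a2 (0.16), Plxdc1 (0.17) and Clu (0.18), Aqp1 to Pir (0.19), Chi3l1 (0.21) and Tmie (0.21), and Enpp2 to Plekhb1 (0.17), Hapln4 (0.18) and Fxyd1 (0.20).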

How the data were processed

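Messenger RNA of mouse cerebral cortex was sequenced after trizol extraction with an Illumina mRNA kit, per the labels' protocols. The tools named, with no role or order, are HTSeq 0.5.3p3, Bowtie 0.12.7.0, SAMtools 0.1.7a, CASAVA 1.7.1 and TopHat 1.0.13, with the mm9 build, per the submitters' processing notes. The sources used here do not say whether counting used strand, nor which tool stabilized the variance.

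The deposited gene values are variance-stabilized by the authors on a log2-like scale, with 1 shared lowest value for genes without reads. They step through whole read counts along 1 curve with a scale per sample, which gave the counts back: 100% of values lay within 0.1 of a whole count, also above the 300 lowest steps that seeded the fit. CPM are these reads per 1000000 reads in genes and describe levels only. The recovery was tested on simulated data. Ratios pool the reads of a group, with exact 95% intervals for counting error. Reads are not unique molecules. Replicates of a group differed by more than sampling noise (chi-square per degree of freedom 4.83 to 17.7), so all 7 samples were kept.

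Differences were tested on the deposited values with limma 3.58.1 in R 4.3.3 (lmFit and eBayes with a trend, all 7 samples, no block), leaving out genes without reads in more than 3 of 7 samples, with Benjamini-Hochberg adjustment over 22828 genes and a threshold of 0.05. The filter removes genes with reads in the adult samples only. Genes without reads in a whole group, and with over 3 reads in the other group, entered list medians a second time at a bound of 3 reads over the group. The 7 genes and the 18 lists were chosen with earlier results of these data known. From each list the 2 called genes with the largest change were named, plus the largest in the rarer direction, and up to 5 each way for the main plexus list; for each of the 7 genes the 3 nearest profiles were named. Some genes that this rule names are not reported here. Genes named only for lacking a call, for their place in a pathway or for their spread were chosen after their values were seen. Exon lengths and overlaps came from GENCODE M21 (GRCm38), by symbol. The deposited exon table held none of the 7 genes, so its 7 sample columns were not used and the planned exon comparison was not run. Alternatives were no filter, centring, voom on recovered counts, no trend, a replicate block, leaving out each sample and, for levels, median-of-ratios scaling.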

Additional observations from a re-analysis of the deposited data

Results flagged for a closer look

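Of 54 genes examined, 7 had 1 embryonic sample set apart from the other 3, by a gap, as a share of the group's range on the deposited scale, above Dixon's 95% limit for 4 samples. Chance gives about 1 in 20. For 4 of the 7 genes (Slc22a6, Avp, Oxt and Vdr) the other 3 samples tie at no reads, which fixes the gap at 1.0 whatever the reads. That leaves Enpp2, Prlr and Lbp. The 54 still include the tied genes, so 3 of 54 can be set against that rate only roughly, and no excess over chance is shown. Enpp2 was low in embryonic replicate 1, with 113 reads, 6.13 CPM and a deposited value of -5.96, a gap of 0.884 of the range. Prlr was low in embryonic replicate 3 (13 reads, 0.612 CPM, gap 0.891), and Lbp had 0 reads there (gap 0.873). Slc22a6 had 8 reads in embryonic replicate 1 (0.434 CPM) and none in the other 3 (gap 1.0). Avp had 1 read in embryonic replicate 1, Oxt 1 read in embryonic replicate 2 and Vdr 2 reads in embryonic replicate 2, with none elsewhere in the group (gap 1.0 each).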

How the results depend on the processing

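The differences of all 7 genes kept their direction and their call under the 12 alternatives run. Their ranges were 10.14 to 11.88 for Ttr, 5.47 to 6.58 for Kl, 4.45 to 6.13 for Folr1, 2.85 to 3.77 for Kcnj13, 4.94 to 5.79 for Clic6, 2.24 to 2.90 for Aqp1 and 5.83 to 6.08 for Enpp2, and the largest adjusted p was 0.000371 (Aqp1, limma without trend). Leaving out each sample in turn gave 7705 to 8042 genes higher and 7339 to 7559 lower. Centring each sample on its median lowered every difference by 0.18 and moved the share of higher calls from 51.4% to 43.6%. Dropping the filter or the trend left the 7 differences themselves unchanged and bears on their calls only. The replicate block gave the same 7 differences as leaving out embryonic replicate 4. The 12 alternatives are therefore not 12 separate checks of direction. Same-numbered samples correlated at 0.00879, 0.0567 and 0.0405, and each correlated best with its own number. Samples with different numbers correlated at -0.0475 to -0.00318. Each group's mean was subtracted first, so a positive value with the same number forces negative values with the others on balance. These correlations were weak, and whether the number marks anything shared was not tested. The replicate block gave 15555 called genes against 15916 without it, and changed no call among the 7 genes. Of 432 list counts, 14 moved by more than 1.5 times, none of them for the plexus lists: lower genes of the midline list (2, centred or with voom, against 1), ependyma list (1, centred, with voom or without trend, against 0) and thyroid hormone list (2 without trend, against 4), lower thalamic and hypothalamic genes (1 centred, against 0), higher folate genes (1 centred, against 2), and the counts given with the chloride channel and thalamic lists. Median-of-ratios scaling put adult Kcnj13 at 3.96 CPM instead of 3.84. The planned exon alternatives were not run, since the exon table held none of the 7 genes. Depth limits the embryonic levels of all but Enpp2, which rest on at most 21 reads per sample.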
